A study of Homo sapiens with 15 samples.

Results

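The comparison described here is between 2 short hairpin RNAs (shRNAs) directed at the same transcript, SS18-SSX1, in HSSYII cells. The libraries were chosen by their labels, 3 for shSS18-SSX1-1 (the first hairpin) and 3 for shSS18-SSX1-2 (the second hairpin), and make up 6 of the 15 RNA-seq libraries of the series. HSSYII is an established line of synovial sarcoma with the SS18-SSX1 fusion, which every group, controls included, therefore carries. For both hairpins and for the control hairpin shRenilla (3 libraries), which targets a luciferase that human cells lack, cells were infected with GFP-tagged lentivirus at a multiplicity of infection of 1 and kept without drug selection for 96 hr, so uninfected cells were not removed by a drug. The remaining 6 libraries were not infected and were treated for 6 hr with DMSO or with 100 nM dBRD9-A, which degrades the BRD9 protein. No source used here says whether the libraries of a group came from separate cultures. The p-values here set the difference between groups against the spread of libraries within a group, and that spread may be purely technical.

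In synovial sarcoma a chromosomal translocation joins SS18, a subunit of the BAF (SWI/SNF) chromatin remodelling complex, to an SSX protein, and the fusion protein is built into BAF complexes. An shRNA is processed into a small RNA that guides the degradation of transcripts with a matching sequence. Each hairpin has its own sequence, so it can differ from another in how far it lowers its target and in which other transcripts it matches. Comparing hairpins against one target therefore asks which changes both give alike and which differ in size.

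Total counts, after 1 transcript row was kept per gene, were 18576874 to 24664037 with the first hairpin (median 22165851) and 19639842 to 25787031 with the second hairpin (median 22291969). Levels are given in CPM, read counts scaled to library size by TMM, and differences are log2 values of the second hairpin minus the first hairpin with their standard error (SE). A gene was called when its adjusted p was under 0.05 (edgeR's quasi-likelihood test on the 6 libraries, Benjamini-Hochberg over 14100 genes), at any fold. The control library shRenilla replicate 1 stood apart from the other control libraries (chi-square per degree of freedom 27.0 and 36.5 against them, and 9.76 between the others), while pairs of libraries of the same SS18-SSX1 hairpin gave 2.35 to 9.85. Of markers for other cell types, PTPRC, CDH5, KDR, KRT5, GRHL2 and MYOG were at 0 in all 6 hairpin libraries, and PECAM1, EPCAM, LYZ and SOX10 were at or below 0.123 CPM there. Others were present: the endothelial markers ERG (19.0 to 23.4 CPM), CLDN5 (1.64 to 6.06 CPM) and TEK (0.588 to 1.68 CPM) and the leukocyte markers CD68 (4.89 to 6.54 CPM), CD14 (0.313 to 0.805 CPM) and LCP1 (0.317 to 0.713 CPM), of which TEK and LCP1 had no read in shRenilla. The summed level of the 10 endothelial markers was 21.8 to 25.3 CPM with the first hairpin, 27.4 to 31.4 CPM with the second hairpin and 31.4 to 33.8 CPM with shRenilla, and that of the 10 leukocyte markers was 6.11 to 7.14, 6.57 to 8.54 and 3.31 to 5.51 CPM. Their part in the results was not tested. TLE1, a transcriptional corepressor used as a marker of synovial sarcoma, was at 181 to 201 CPM in them.

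Both hairpins lowered the targeted transcript, and the first hairpin lowered it further. SSX1 (GRCh37 chrX:48114827-48126879), which supplies the 3′ part of the fusion transcript, was at 76.5, 58.9 and 55.5 CPM with shRenilla. It was at 20.9, 20.6 and 18.6 CPM with the first hairpin and at 28.8, 29.0 and 27.6 CPM with the second hairpin, and none of the 3 groups overlapped. The difference between the hairpins was 0.50 (SE 0.0735, adjusted p = 0.00852, edgeR). Against shRenilla, SSX1 fell by 1.67 on the log2 scale with the first hairpin and by 1.18 with the second hairpin (adjusted p = 1.19e-07 and 3e-06 from edgeR on 9 libraries, in which the hairpins share the control libraries). The call between the hairpins did not hold without replicate 1 of the first hairpin (adjusted p = 0.0575), without replicate 1 of the second hairpin (adjusted p = 0.0654) or in the fit of 9 libraries (adjusted p = 0.138). It was also lost in a fit with a block for the replicate number (adjusted p = 0.0958). Counts per gene do not separate the fusion from unfused SSX1, and in bulk RNA fewer infected cells and less SSX1 RNA per cell cannot be told apart.

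SS18 (chr18:23596217-23671181 on GRCh37), which supplies the 5′ part of the fusion and is also read from the unfused allele, was at 156 to 181 CPM with shRenilla. Its level was 111, 112 and 109 CPM with the first hairpin and 121, 121 and 127 CPM with the second hairpin. The hairpin groups did not overlap, but the difference of 0.14 (SE 0.0511) did not pass the test (adjusted p = 0.244, edgeR). Of the other SSX genes in the list of fusion partners (SSX2, SSX2B, SSX3, SSX4, SSX4B, SSX5 and SSX7), none had more than 3 counts in any of the 15 libraries.

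The gene with the largest called difference was MIR30A, the annotated precursor of the microRNA miR-30a. The miR-30 stem-loop is widely used as the backbone from which artificial hairpins are expressed, and the study lists SGEN, from an RNAi core facility, among its DNA reagents without describing its backbone or tying it to these hairpins. The RefSeq precursor (GRCh38.p14, chr6:71403551-71403621, minus strand) is shown with the arms that become mature microRNAs in capitals, because reads assigned to this short annotation carry the result. The mature forms follow with the seed, bases 2 to 8 from the 5′ end, in capitals.
MIR30A precursor: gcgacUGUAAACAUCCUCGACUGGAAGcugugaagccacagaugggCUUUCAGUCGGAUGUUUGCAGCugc
hsa-miR-30a-5p: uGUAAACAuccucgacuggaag
hsa-miR-30a-3p: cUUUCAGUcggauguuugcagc
The seeds of the arms differ, and 19 bases of loop separate the arms in the precursor.

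MIR30A had 0 counts in all 6 uninfected libraries, which allows at most 0.145 CPM in the shallowest of them (3 counts, counting error only). It had 729, 1371 and 764 counts with shRenilla, 513, 405 and 639 with the first hairpin, and 141, 214 and 96 with the second hairpin. In CPM these were 27.3, 62.0 and 37.2, then 23.2, 21.7 and 26.2, then 6.35, 8.38 and 4.89. All infected groups stood above the uninfected libraries, and the second hairpin lay below both other hairpins with no overlap. The difference was -1.85 (SE 0.147, adjusted p = 0.000156, edgeR), and the call held under each alternative that gave MIR30A a value. LINC00472, the long non-coding transcript that contains MIR30A on the same strand, was at 12.9 to 14.0 CPM with the first hairpin and 12.2 to 14.2 CPM with the second hairpin, so the groups overlapped. It was at 5.98 to 8.97 CPM in the uninfected libraries. Whether reads of a viral hairpin cassette were assigned to MIR30A was not tested.

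**Figure D1:**
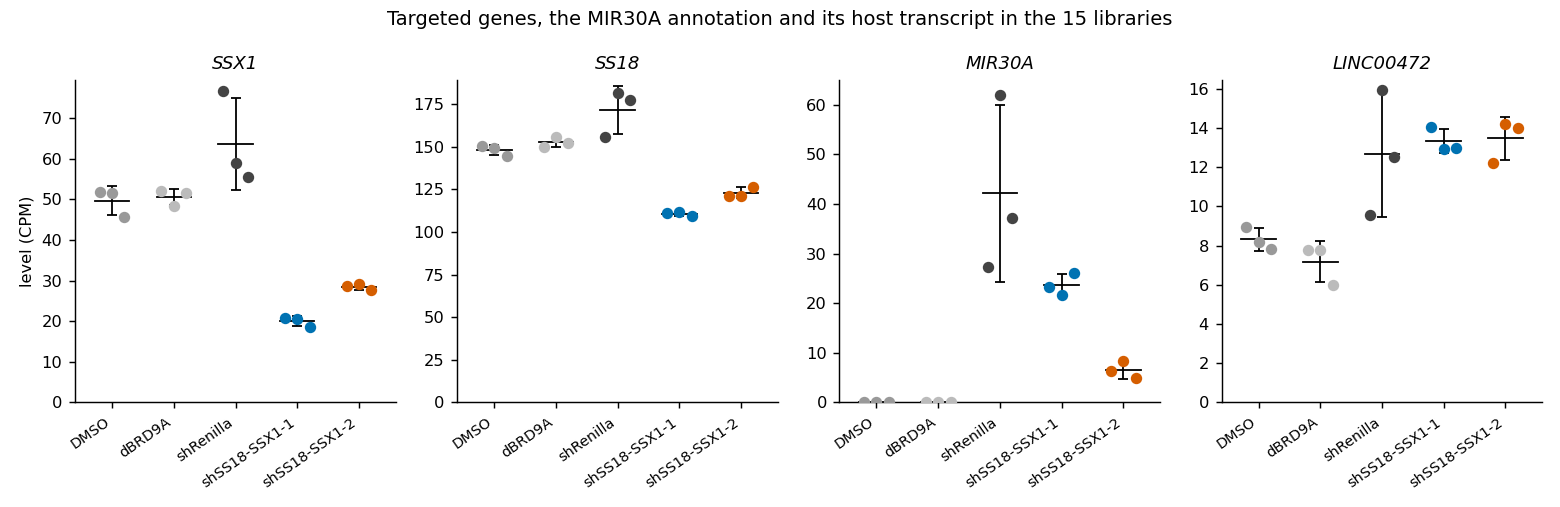
Level in CPM (linear axes from 0) of SSX1, SS18, MIR30A and LINC00472 in the 5 groups of 3 libraries. Points are libraries, long bars the mean and error bars the SD; SSX1 is lowest with shSS18-SSX1-1, MIR30A is at 0 in the uninfected groups and lower with shSS18-SSX1-2 (4.89 to 8.38 CPM) than with the other hairpins, and LINC00472 overlaps between the hairpins.

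Across all genes the hairpins differed for 168 of 14100 genes tested (1.19%). Of these, 117 were higher (0.83% of genes tested) and 51 lower (0.362%) with the second hairpin. These shares are the background for the counts of called genes in each list below. Past 1.5-fold there were 65 higher (0.461%) and 8 lower (0.0567%), and beyond 2-fold 19 higher and 3 lower. For comparison, 41.5% of 14268 genes were called with the first hairpin against shRenilla and 34.2% with the second hairpin. The median difference over all genes tested was -0.0025. TMM scaling places the bulk of genes near 0, so this median cannot show whether either hairpin stood higher as a whole. The groups did not overlap for any of the 168 called genes, and they did not overlap for 17.9% of all genes tested. The count depended on single libraries. It was 31 without replicate 1 of the first hairpin, 93 without its replicate 2, 28 without replicate 1 of the second hairpin, 98 without its replicate 3 and 520 without its replicate 2. In the fit of 9 libraries 21 genes were called, and 20 of the 84 calls among the named genes held.

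**Figure D2:**
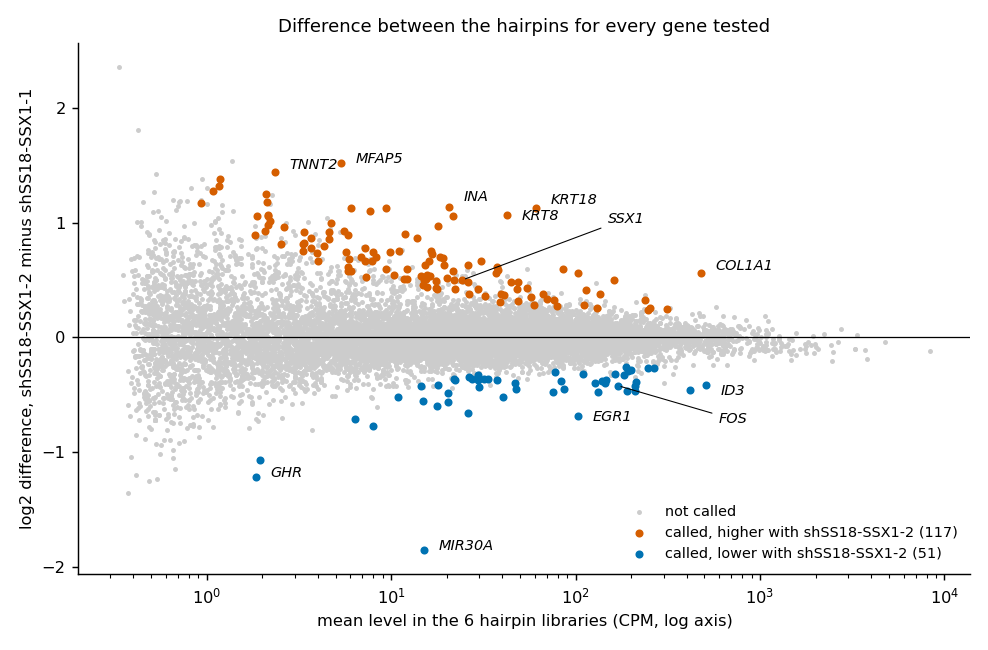
Log2 difference between the hairpins (vertical axis) against the mean level in the 6 hairpin libraries in CPM (log axis) for the 14100 genes tested. Grey points were not called, orange points are the 117 genes called higher and blue points the 51 called lower with shSS18-SSX1-2; MIR30A is the lowest called point at -1.85 and MFAP5 the highest at 1.52.

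The shRenilla libraries were then set beside the called genes. Of the 117 genes higher with the second hairpin, all 6 hairpin libraries lay above all shRenilla libraries for 59 (50.4%) and below them for 47 (40.2%). Of the 51 lower genes, the hairpin libraries lay above all shRenilla libraries for 42 (82.4%) and below for 1 (1.96%), MIR30A. Among all genes tested these orders held for 21.0% and 18.0%. Of the higher genes, 44 (37.6%) had a shRenilla mean under 1 CPM, against 10.1% of genes tested. Most higher genes were therefore held by both hairpins above the control, more so with the second hairpin, or below it, less so. For 11 of the 117 higher genes (9.40%) and 8 of the 51 lower genes (15.7%) the hairpin libraries lay neither wholly above nor wholly below shRenilla. Among all genes tested this share was 60.9%.

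Keratins form the intermediate filaments of epithelial cells, and biphasic synovial sarcoma is known for epithelial areas that stain for them. Of 22 keratins listed, 6 passed the count filter and were tested. Of these 6, 4 were higher with the second hairpin and none lower (0.83% of genes tested were higher), and the median over the 6 was 1.06. KRT8, the type II partner of KRT18 in simple epithelia, was at 29.0, 27.3 and 25.6 CPM with the first hairpin and at 63.9, 54.5 and 54.2 CPM with the second hairpin. In shRenilla it did not exceed 0.113 CPM. The groups were far apart, with a difference of 1.06 (SE 0.0826, adjusted p = 0.000156, edgeR).

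KRT18, the type I partner, was at 37.7, 38.9 and 37.7 CPM with the first hairpin and at 90.7, 84.0 and 76.2 CPM with the second hairpin, and at most 0.337 CPM with shRenilla. Its difference was 1.12 (SE 0.0715, adjusted p = 3.29e-05, edgeR), and the calls of KRT8 and KRT18 held under every alternative run. On GRCh37 KRT8 (chr12:53290971-53343738, minus strand) and KRT18 (chr12:53342655-53346690, plus strand) overlap at their ends in the annotation. No source used here gives the strand setting of the counting, and reads in that overlap cannot be assigned to one of them.

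KRT14, a keratin of basal epithelial cells, was much scarcer, at 0.641 ± 0.134 CPM with the first hairpin and 1.54 ± 0.101 CPM with the second hairpin (SD, n = 3 each), and KRT80 was at 1.40 ± 0.299 and 2.92 ± 0.726 CPM. Neither had a read in shRenilla. Their differences of 1.27 and 1.06 passed the test narrowly (adjusted p = 0.0275 and 0.0468, edgeR) and held in only 1 of the 6 fits that left out a library (without replicate 2 of the second hairpin for KRT14 and without its replicate 3 for KRT80). The lost calls of KRT14 gave an adjusted p of 0.0534 to 0.148 and those of KRT80 an adjusted p of 0.0514 to 0.148, with the highest without replicate 1 of the first hairpin. KRT17 gave 0.73 (adjusted p = 0.0679).

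Of 14 tested genes of epithelial junctions and identity, 2 were higher and none lower (0.83% of genes tested were higher). CDH1 encodes E-cadherin, the adhesion molecule of epithelial junctions, and was at 1.37 ± 0.303 CPM with the first hairpin and 2.94 ± 0.146 CPM with the second hairpin (difference 1.07, adjusted p = 0.0225, edgeR). ELF3, an epithelial ETS transcription factor, was at 4.24 ± 0.351 and 7.13 ± 0.933 CPM (difference 0.74, adjusted p = 0.0225). Both were at or below 0.0452 CPM with shRenilla. Both calls were lost without replicates 1 or 2 of the first hairpin or without replicate 1 of the second hairpin (adjusted p = 0.0562 to 0.148 for CDH1 and 0.0577 to 0.123 for ELF3). CDH3, the placental cadherin, was at 55.8 to 64.5 CPM with the first hairpin and 62.9 to 68.4 CPM with the second hairpin, overlapping groups. EPCAM and KRT19, further epithelial markers, did not exceed 0.205 CPM in any of the 6 libraries.

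Filaments of the neuronal type moved in opposite directions. INA, alpha-internexin, was at 13.1, 11.1 and 14.3 CPM with the first hairpin and at 29.8, 30.0 and 25.6 CPM with the second hairpin, with 4.47 to 5.40 CPM in shRenilla. The difference was 1.13 (SE 0.0998, adjusted p = 0.000299, edgeR). PRPH, peripherin, was at 215, 221 and 225 CPM with the first hairpin and at 149, 170 and 162 CPM with the second hairpin, with 56.4 to 68.0 CPM in shRenilla. Its difference was -0.47 (SE 0.0565, adjusted p = 0.00283), so each hairpin raised both genes over the control while their order between the hairpins was reversed. These were the only calls among 11 tested intermediate filament and lamin genes outside the keratins. VIM, the mesenchymal filament vimentin, was at 2548 to 2751 CPM and 2155 to 2544 CPM (difference -0.20, adjusted p = 0.166).

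**Figure D3:**
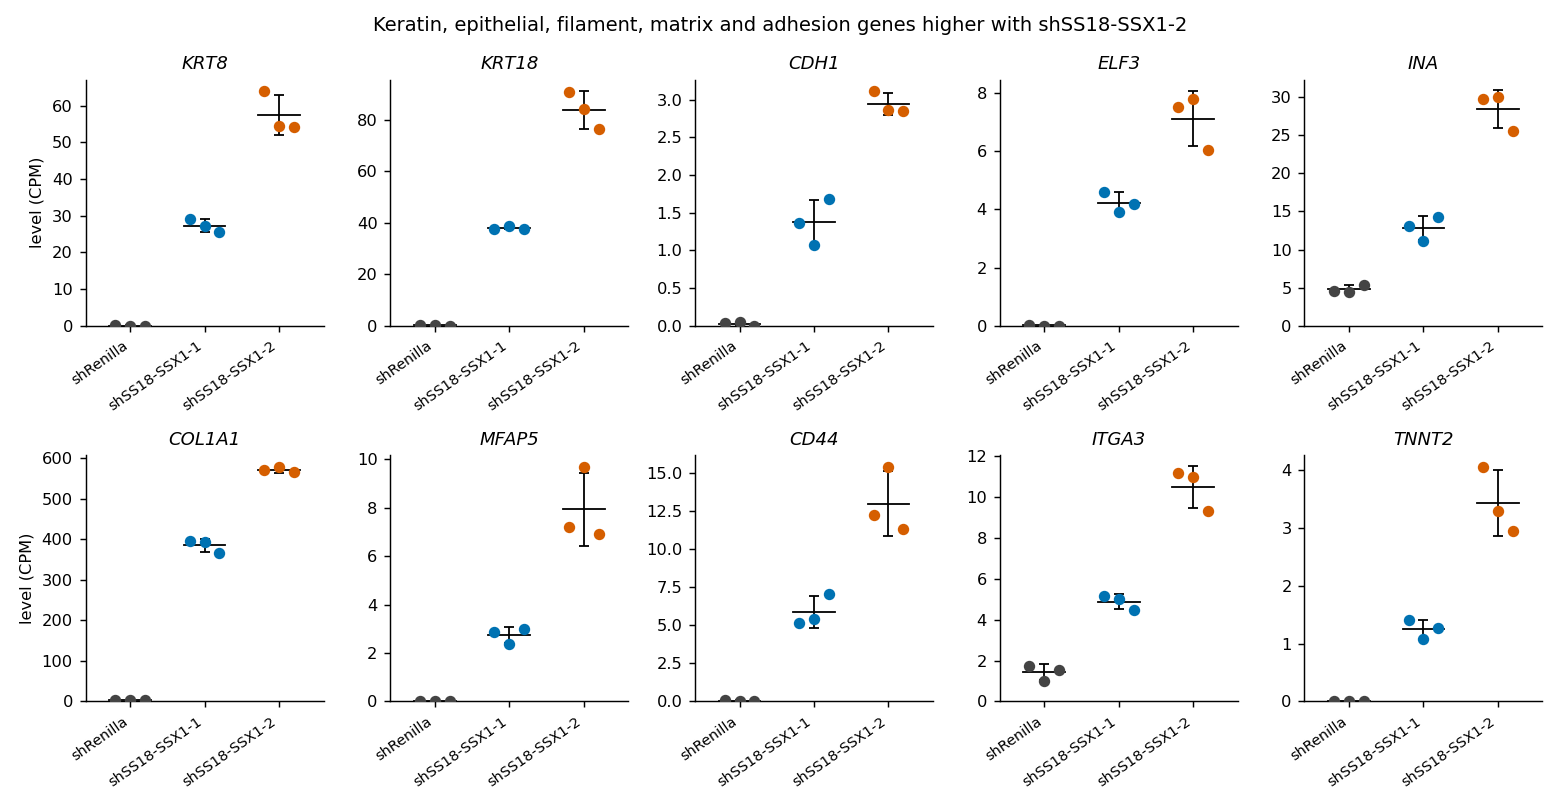
Level in CPM (linear axes from 0) of 10 genes called higher with shSS18-SSX1-2, in shRenilla and both SS18-SSX1 hairpins. Points are libraries, long bars the mean and error bars the SD of 3 libraries; in every panel the shSS18-SSX1-2 libraries lie above the shSS18-SSX1-1 libraries, and both lie above shRenilla, whose levels are near 0 in all panels but INA (4.47 to 5.40 CPM), COL1A1 and ITGA3.

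The collagens and the matrix glycoproteins form the scaffold around cells and were counted as separate lists. Of 25 collagens tested, 4 were higher and none lower (0.83% of genes tested were higher). COL1A1, the alpha 1 chain of type I collagen, was at 395, 393 and 368 CPM with the first hairpin and at 571, 579 and 565 CPM with the second hairpin, against 2.35 to 4.16 CPM with shRenilla. The difference was 0.56 (SE 0.0497, adjusted p = 0.000299, edgeR), and the call was lost only in the fit of 9 libraries (adjusted p = 0.0557).

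The basement membrane collagens COL4A1 and COL4A2, neighbours on chromosome 13 whose annotations meet, rose by 0.82 and 0.85 to 4.32 ± 0.498 and 5.91 ± 0.979 CPM with the second hairpin (adjusted p = 0.0247 and 0.0236). COL16A1 differed by 0.67 (adjusted p = 0.0393). The calls of these 3 were lost without replicate 1 of either hairpin (adjusted p = 0.0938 to 0.148), and also without replicate 2 of the first hairpin for COL4A1 (0.064), replicate 3 for COL4A2 (0.0558), and either of these or replicate 3 of the second hairpin for COL16A1 (0.0904 to 0.0965).

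Of 26 matrix glycoproteins and crosslinking enzymes, 4 were higher and 1 lower (0.83% and 0.362% of genes tested). MFAP5, a glycoprotein of elastic microfibrils, had no read in shRenilla and was at 2.85, 2.36 and 2.99 CPM with the first hairpin and 7.21, 9.68 and 6.93 CPM with the second hairpin. Its difference of 1.52 (SE 0.163, adjusted p = 0.0013) held under every alternative run. MFAP4, also in this list, moved the other way, from 45.1, 47.8 and 49.5 CPM to 31.1, 35.4 and 33.3 CPM (difference -0.52, SE 0.0707, adjusted p = 0.00518, edgeR). The MFAP4 call was lost without replicate 1 of the second hairpin (adjusted p = 0.052).

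The other called members were FN1, NID2 and TGM2. FN1, fibronectin, was at 3.18 ± 0.625 and 6.06 ± 0.423 CPM (difference 0.92, adjusted p = 0.0167, not called without replicate 1 of the second hairpin, 0.0654). NID2, a basement membrane linker, was at 14.5 ± 1.53 and 20.6 ± 2.30 CPM (difference 0.49, adjusted p = 0.0401). TGM2, transglutaminase 2, which crosslinks matrix proteins, was at 57.5 ± 1.70 and 75.1 ± 5.99 CPM (difference 0.38, adjusted p = 0.0225). NID2 and TGM2 lost their calls without replicates 1 or 2 of the first hairpin or without replicate 1 of the second hairpin (adjusted p = 0.0893 to 0.214 and 0.0562 to 0.142).

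ITGA3, TNS3, MYOF and CD44, which belong to none of the gene lists, were also higher with the second hairpin. ITGA3, an integrin subunit that binds laminin, was at 5.16, 4.99 and 4.47 CPM with the first hairpin and at 9.32 to 11.2 CPM with the second hairpin (difference 1.10, SE 0.116, adjusted p = 0.00125, edgeR). TNS3, a tensin that links integrins to actin, was at 4.07, 3.60 and 3.61 CPM and at 8.20, 8.03 and 8.71 CPM (difference 1.13, SE 0.115, adjusted p = 0.00105). MYOF, a membrane repair protein of the ferlin family, was at 16.1, 11.8 and 13.9 CPM and at 30.3, 32.4 and 25.1 CPM (difference 1.06, SE 0.118, adjusted p = 0.00176). In these genes, as in KRT8 and INA, the levels with the second hairpin were all above the highest level with the first hairpin, and the calls held under every alternative run.

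CD44, the hyaluronan receptor, went from 5.16, 5.42 and 7.09 CPM to 12.3, 15.4 and 11.4 CPM (difference 1.13, SE 0.146, adjusted p = 0.00443; 0.0607 without replicate 1 of the first hairpin). TIMP3, an inhibitor of metalloproteinases, rose by 0.77 (adjusted p = 0.0232), the only call among 12 metalloproteinases and inhibitors. Its call was lost without replicates 1 or 2 of the first hairpin or replicate 1 of the second hairpin (adjusted p = 0.0605 to 0.148).

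Muscle genes gave 1 call. TNNT2, cardiac troponin T, had no read in shRenilla and was at 1.40, 1.07 and 1.27 CPM with the first hairpin and 4.06, 3.29 and 2.95 CPM with the second hairpin (difference 1.44, SE 0.193, adjusted p = 0.00509, edgeR). It was the only called gene of 12 striated muscle genes tested. None of 26 smooth muscle and SRF target genes was called, with a median of 0.02. ACTG2, smooth muscle gamma actin, was at 89.6 to 104 CPM with the first hairpin and 103 to 137 CPM with the second hairpin, against at most 0.271 CPM with shRenilla, and the hairpin groups overlapped (difference 0.30, adjusted p = 0.165).

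The immediate early genes, transcription factors and feedback regulators induced within minutes of a growth signal, were the list with the most calls in the other direction. Of 33 tested, 6 were lower with the second hairpin (0.362% of genes tested were lower) and 2 higher, and the median was -0.14. EGR1, a zinc finger factor, was at 125, 116 and 140 CPM with the first hairpin and at 69.4, 85.4 and 84.5 CPM with the second hairpin. With shRenilla it was at 6.22, 14.4 and 31.2 CPM, a wide spread, but below all 6 hairpin libraries. Its difference between the hairpins was -0.68 (SE 0.0864, adjusted p = 0.00397, edgeR), and it was not called in the fit of 9 libraries (adjusted p = 0.623), where shRenilla sets part of the spread. Of 19 alternatives, 16 kept the EGR1 call, among them all 6 fits that left out a library.

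The AP-1 subunits differed in the same direction, with one exception. FOS was at 201, 183 and 194 CPM with the first hairpin and at 143, 150 and 143 CPM with the second hairpin (difference -0.42, SE 0.0533, adjusted p = 0.00395). JUNB was at 162, 172 and 159 CPM and at 120, 124 and 133 CPM (difference -0.40, SE 0.0581, adjusted p = 0.00808), and FOSB at 11.9, 9.12 and 8.97 CPM and at 6.94, 5.05 and 5.81 CPM (difference -0.77, SE 0.148, adjusted p = 0.0298). FOSL1, the AP-1 subunit FRA-1, was higher, at 10.0 ± 0.777 and 14.4 ± 0.542 CPM (difference 0.51, SE 0.0915, adjusted p = 0.0225). With shRenilla FOSL1 was at 10.3 ± 2.57 CPM. The calls of JUNB, FOSB and FOSL1 were lost without replicate 1 of either hairpin (adjusted p = 0.0573 to 0.168), those of FOSB and FOSL1 also without replicate 3 of the second hairpin (0.0695 and 0.0505). In the fit of 9 libraries FOS was not called either (adjusted p = 0.466), nor were JUNB, FOSB and FOSL1 (0.0923, 0.105 and 0.242).

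ID1 and ID3, inhibitors of basic helix-loop-helix factors and targets of BMP signalling, were the most abundant of the 6. ID1 was at 224, 243 and 262 CPM with the first hairpin and at 169, 191 and 172 CPM with the second hairpin (difference -0.47, SE 0.0666, adjusted p = 0.00707). ID3 was at 567, 612 and 557 CPM and at 419, 462 and 427 CPM (difference -0.42, SE 0.0569, adjusted p = 0.00521). Both calls were lost without replicate 1 of the second hairpin (adjusted p = 0.065 and 0.0573) and in the fit of 9 libraries (0.0628 and 0.651). DUSP5, a phosphatase that acts on ERK, was higher, at 14.4, 15.6 and 14.9 CPM and at 20.6, 20.5 and 19.7 CPM (difference 0.43, adjusted p = 0.0225). The DUSP5 call was lost without replicate 1 of either hairpin or replicate 3 of the second hairpin (adjusted p = 0.0511 to 0.148) and in the fit of 9 libraries (0.39).

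**Figure D4:**
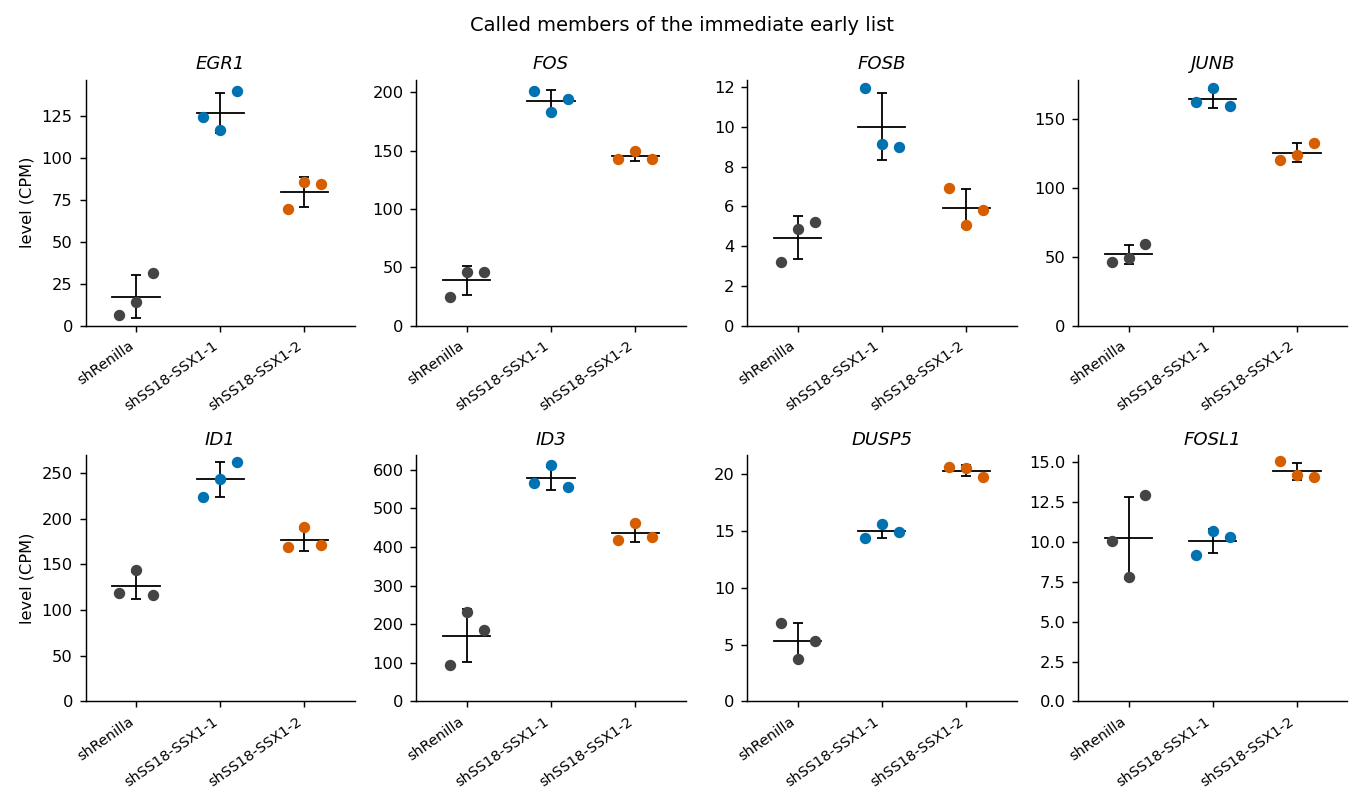
Level in CPM (linear axes from 0) of the 8 called immediate early genes in shRenilla and both SS18-SSX1 hairpins. Points are libraries, long bars the mean and error bars the SD of 3 libraries; EGR1, FOS, FOSB, JUNB, ID1 and ID3 are lower with shSS18-SSX1-2 than with shSS18-SSX1-1, and DUSP5 and FOSL1 are higher.

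Serum response factor, through which growth signals act on many immediate early genes, binds the CArG box. The 250 bases before the EGR1 start in RefSeq (GRCh38.p14, chr5:138465229-138465478, plus strand) are shown because EGR1 had the strongest difference among the abundant genes of this list, with matches to the CArG box in capitals.
EGR1 upstream: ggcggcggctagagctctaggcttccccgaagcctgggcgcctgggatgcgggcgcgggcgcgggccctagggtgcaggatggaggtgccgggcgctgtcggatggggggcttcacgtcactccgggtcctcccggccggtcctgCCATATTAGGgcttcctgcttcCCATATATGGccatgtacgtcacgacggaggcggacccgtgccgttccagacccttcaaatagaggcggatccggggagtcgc
The window of 300 bases around the start (250 before, 50 after, both strands) was searched for 39 called lower and 75 called higher genes that matched a RefSeq promoter by symbol. A CArG box was found in 3 of the 39 (7.69%; EGR1, PTCH1 and PDE4D) and in 3 of the 75 (4.0%; PDGFA, LRAT and FHL1), and in 1.58% of 10141 tested genes with a promoter. The AP-1 site TGANTCA was found in 1 of the 39 (2.56%) and 6 of the 75 (8.0%), against 6.62% of the 10141. FOS, FOSB, JUNB, ID1, ID3, KRT8, INA and CD44 held neither motif in this window. Sites more than 250 bases before the start were not searched, so these genes may hold either motif there. The KRT8 window was chr12:52926420-52926719 (GRCh38.p14, minus strand), and any other start of KRT8 was not searched.

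Outside this list, LOC101927267, DDIT4, SEMA3B and PRPH (described above) were lower with the second hairpin and kept their calls when any single library was left out. LOC101927267, a non-coding RNA, was at 150, 160 and 153 CPM with the first hairpin and at 108, 114 and 113 CPM with the second hairpin (difference -0.47, SE 0.0531, adjusted p = 0.00176, edgeR). DDIT4, an inhibitor of mTORC1 that stress induces, was at 232, 246 and 238 CPM and at 172, 187 and 179 CPM (difference -0.43, SE 0.0517, adjusted p = 0.00287). It was the only called gene of 29 in the integrated stress response. SEMA3B, a secreted semaphorin, was at 85.3, 93.3 and 84.9 CPM and at 62.7, 65.2 and 63.4 CPM (difference -0.47, SE 0.0599, adjusted p = 0.00395). In the fit of 9 libraries LOC101927267 kept its call, while SEMA3B, DDIT4 and PRPH did not (adjusted p = 0.203, 0.0942 and 0.0557). All 4 were higher with each hairpin than with shRenilla. C1QL4 was also lower (difference -0.60, adjusted p = 0.00509, edgeR) and kept its call without any single library. It was at 21.3 ± 1.36 CPM with the first hairpin and 14.2 ± 0.218 CPM with the second hairpin. The hairpin libraries of C1QL4 overlapped those of shRenilla (12.0 ± 1.88 CPM), and its call was lost in the fit of 9 libraries (adjusted p = 0.0596). The largest called falls after MIR30A were those of GHR, the growth hormone receptor (-1.21, adjusted p = 0.0232), and GDF5, a growth factor of joint development (-1.07, adjusted p = 0.0301). Both were below 3 CPM in every hairpin library, and their calls held in 3 and 2 of the 6 fits without a library. The lost calls gave an adjusted p of 0.051 to 0.148 (GHR without replicates 1 or 3 of the first hairpin or replicate 3 of the second hairpin, GDF5 without replicates 1 or 2 of the first hairpin or 1 or 3 of the second hairpin).

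The 47 higher genes that stood below the control with both hairpins were by that order closer to it with the second hairpin, unlike MIR30A. WNT16, a secreted Wnt ligand, was at 61.0, 68.1 and 68.1 CPM with shRenilla, at 24.6, 23.7 and 22.2 CPM with the first hairpin and at 39.0, 35.1 and 38.6 CPM with the second hairpin. Its difference of 0.66 (SE 0.0744, adjusted p = 0.00176, edgeR) held under every alternative run. Of 45 developmental transcription factors tested, 2 were higher and none lower (0.83% of genes tested were higher). UNCX, a paired-type homeobox factor, was at 27.8 ± 3.73 CPM with shRenilla, 3.83 ± 0.762 with the first hairpin and 7.30 ± 1.05 with the second hairpin (difference 0.93, adjusted p = 0.0225), and EN2, an engrailed homeobox factor, at 54.1 ± 0.727, 17.4 ± 1.39 and 26.1 ± 3.23 CPM (difference 0.58, adjusted p = 0.0225). Both calls were lost without replicate 1 of either hairpin (adjusted p = 0.11 to 0.147), that of EN2 also without replicate 3 of the second hairpin (0.0567).

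PDGFA, CEBPA, KITLG and GREM1, named after their values were seen, gave the same order. PDGFA, a platelet-derived growth factor, was at 49.2 ± 6.37 CPM with shRenilla, 12.5 ± 1.21 with the first hairpin and 20.7 ± 2.97 with the second hairpin (difference 0.72, adjusted p = 0.0159). CEBPA, a myeloid and adipose transcription factor, was at 229 ± 10.1, 82.4 ± 9.16 and 123 ± 10.8 CPM (difference 0.56, adjusted p = 0.0124). KITLG, the ligand of the KIT receptor, was at 195 ± 31.4, 97.6 ± 3.46 and 131 ± 4.76 CPM (difference 0.41, adjusted p = 0.00502). GREM1, a secreted BMP antagonist, was at 133 ± 5.71 CPM with the first hairpin and 190 ± 11.5 with the second hairpin (difference 0.50, adjusted p = 0.00214), and 1 shRenilla library, at 195 CPM, lay within the range of the second hairpin. Without replicate 1 of the second hairpin, PDGFA, CEBPA and KITLG were not called (adjusted p = 0.0855, 0.0654 and 0.052), nor were PDGFA and CEBPA without replicate 1 of the first hairpin (0.123 and 0.117). In the fit of 9 libraries PDGFA, KITLG and GREM1 lost their calls (adjusted p = 0.0557, 0.125 and 0.0705). With a block for the replicate number PDGFA, CEBPA and KITLG lost theirs (0.121, 0.120 and 0.0611).

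Cell cycle genes lay mostly on one side but gave few calls. Over all genes tested the median difference was -0.0025, and 0.83% were called higher. Of 35 DNA replication genes, 34 had a difference above 0, the median was 0.22 and 3 were called higher: RRM2, a subunit of ribonucleotide reductase (0.38, adjusted p = 0.0301), CDC45, a helicase component (0.36, adjusted p = 0.0488), and the cyclin CCNE2 (0.31, adjusted p = 0.0362). RRM2 was at 205 to 269 CPM with shRenilla, 112 to 125 with the first hairpin and 137 to 162 with the second hairpin. The 3 calls were lost without replicate 1 of either hairpin or replicate 3 of the second hairpin (adjusted p = 0.0987 to 0.224), those of CDC45 and CCNE2 also without replicates 2 or 3 of the first hairpin (0.0568 to 0.0919). DESeq2 called 8 genes of this list and voom 2. Of 29 mitosis genes none was called, 26 lay above 0 and the median was 0.18. CCNB1, cyclin B1, was at 135 to 145 CPM with the first hairpin and 162 to 166 with the second hairpin (0.23, adjusted p = 0.0509). Genes of one process vary together, so these counts of signs are a description and carry no test.

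Of 46 interferon response genes tested, 2 were higher and none lower (0.83% of genes tested were higher). Of the 46, 43 lay above 0, and the median was 0.33 against -0.0025 over all genes tested. DESeq2 called 7 of them and voom none. Against shRenilla their median was 1.97 with the first hairpin and 2.31 with the second hairpin, whereas that of the DNA replication genes was -0.78 and -0.56. IFITM1, which blocks viral entry, was at 8.01, 7.78 and 8.77 CPM with the first hairpin and at 11.8, 17.7 and 12.1 CPM with the second hairpin (0.75, adjusted p = 0.0364), and IFI44 stayed at or below 2.00 CPM in every library (1.32, adjusted p = 0.0436). Both calls were lost without replicates 1 or 2 of the first hairpin or replicate 1 of the second hairpin (adjusted p = 0.0573 to 0.233). MX1, an antiviral GTPase, was at 6.23 to 9.10 CPM and 11.3 to 21.0 CPM and did not pass the test (0.90, adjusted p = 0.0617). Of the NF-kB list, 1 of 15 was called, the chemokine CCL5 (1.25, adjusted p = 0.0159; 0.0611 without replicate 1 of the second hairpin), which was at 0.942 to 1.54 CPM with the first hairpin and 2.75 to 3.29 CPM with the second hairpin.

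Several gene groups gave no call in edgeR between the hairpins at an adjusted p under 0.05. Among the machinery that hairpins pass through, none of 13 genes of RNA interference was called, none had an unadjusted p under 0.05, and DESeq2 and voom called none (median 0.01). No BAF subunit was called of 25 (4 at an unadjusted p under 0.05, median -0.03), no Polycomb subunit of 28 (5, median 0.01), no p53 target of 25 (5, median -0.04), no YAP or TEAD target of 17 (6, median 0.02) and no cholesterol synthesis gene of 24 (1, median -0.01). None of 9 HOXC genes (none at an unadjusted p under 0.05) and 9 HOXB genes (1) was called, and DESeq2 and voom called no gene of these 7 lists either. Of the smooth muscle list, 7 genes had an unadjusted p under 0.05, and DESeq2 called 2 and voom none. Of the mitosis list, 19 had one, and DESeq2 called 2 and voom none. Of markers for other cell types, none of 3 endothelial, 2 leukocyte and 6 neural genes tested was called in edgeR (2, 0 and 3 at an unadjusted p under 0.05), and DESeq2 called 1 endothelial gene.

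None of the 10 genes that the study names for their super-enhancers was called, by edgeR, DESeq2 or voom, and 3 had an unadjusted p under 0.05. MYC was at 270 to 293 CPM with the first hairpin and 261 to 312 CPM with the second hairpin, and the transcription factor TWIST1 was at 90.5 to 103 and 90.6 to 103 CPM. LIF, a cytokine, had the largest value of the 10 (0.38, SE 0.109, adjusted p = 0.122), with groups that did not overlap. Further lists gave single calls or none: 1 of 21 FGF and MAPK feedback genes (DUSP5), 1 of 20 Wnt pathway genes (WNT11, 0.67, adjusted p = 0.0391), none of 26 hypoxia and glycolysis genes (6 at an unadjusted p under 0.05, 2 called by DESeq2 and none by voom), none of 15 annexins and S100 proteins (7, 1 and none), none of 15 genes of MHC class I presentation (1, none and none) and none of 12 metallothioneins and oxidative response genes (4, 1 and none). The WNT11 call was lost without replicates 1 or 3 of the first hairpin or 1 or 3 of the second hairpin (adjusted p = 0.075 to 0.223).

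**Figure D5:**
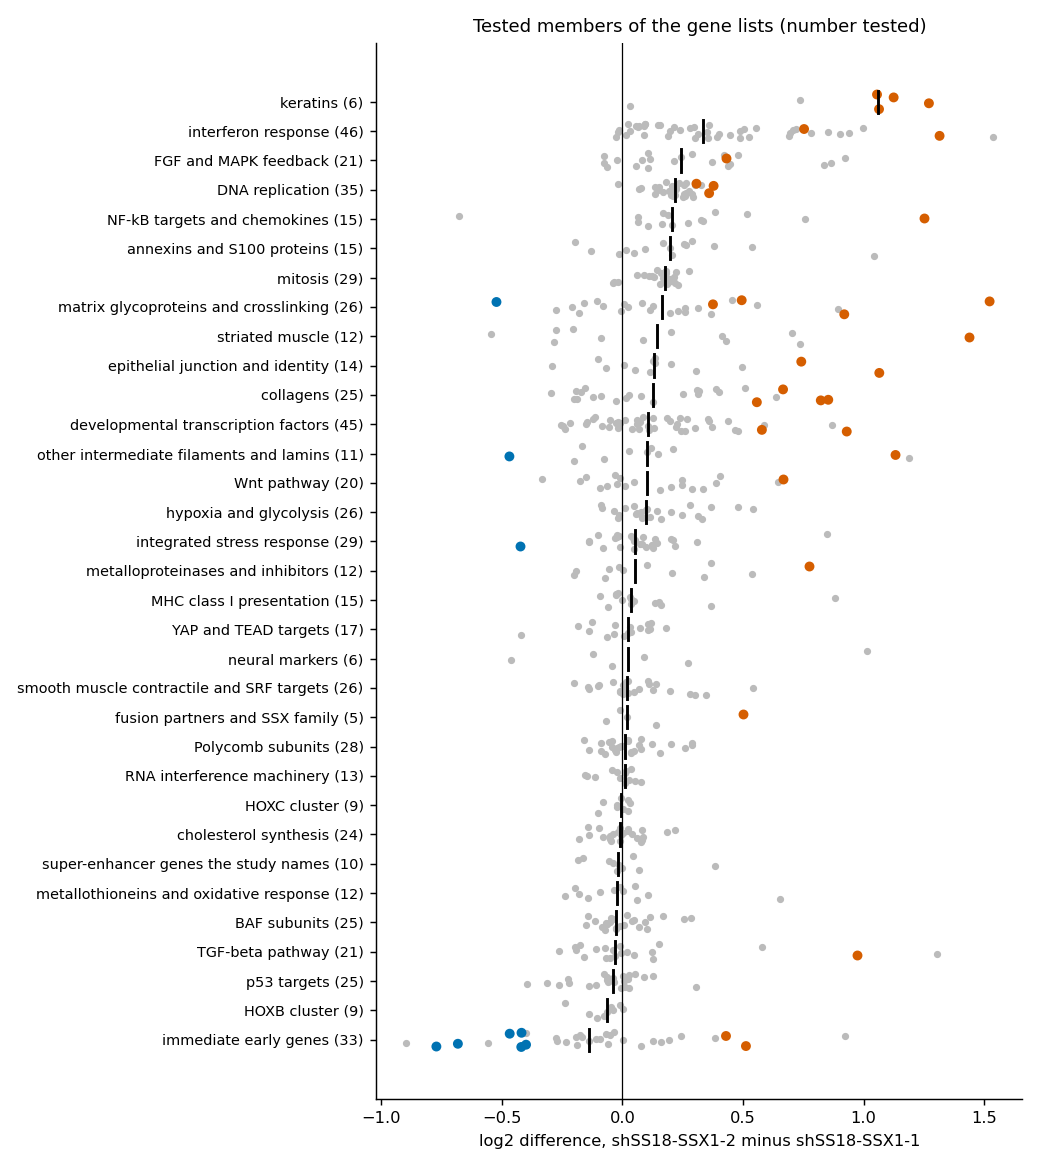
Log2 difference between the hairpins for the tested members of each gene list with at least 5 of them, ordered by median (black bar), with the number tested in parentheses. Orange points are members called higher and blue points members called lower with shSS18-SSX1-2, and grey points were not called; the keratins have the highest median (1.06) and the immediate early genes the lowest (-0.14).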

How the data were processed

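RNA of 15 HSSYII libraries was sequenced, of which the 6 of both SS18-SSX1 hairpins were compared and the 9 others used as background. Per the submitters' processing notes, the authors used STAR, hg19 (GRCh37) and featureCounts, and they deposited unnormalised read counts in 48104 transcript rows a library. No source used here gives versions or the strand setting. In the table of dBRD9A replicate 2, 4535 rows with a broken symbol were repaired, and 78 of 80 symbols turned into dates were restored by transcript identifier. For each of 25679 symbols the row with the highest sum over the 15 libraries was kept. The deposited tables hold no spike-in rows, and TMM scaling cannot show a shift shared by all genes.

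The 6 libraries were compared in R 4.3.3 by the robust quasi-likelihood test of edgeR 4.0.16 (TMM, filterByExpr with a minimum count of 10, Benjamini-Hochberg), without a replicate block, after a test on simulated data. Each hairpin against shRenilla came from a fit of 9 libraries. CPM use TMM factors of all 15 libraries. As alternatives, DESeq2 1.42.0, voom in limma 3.58.1, different scalings, filters and sets of libraries, a block for the replicate number and fits without each library were run. The libraries, gene lists and rules were chosen with earlier results of these data known, and the lists were described by counts and medians, with no set test. Named genes were the 15 largest called rises and falls without overlap of the groups and with a mean of 5 CPM or more, SSX1, SS18, KRT8, KRT18, the super-enhancer genes the study names and up to 5 members of each list by adjusted p. WNT16, GHR, GDF5, PDGFA, CEBPA, KITLG, GREM1, FOSL1, NAGK and the genes named for a promoter motif were chosen after their values were seen. A result that the rule covers is not reported here. Gene positions are from GENCODE lifted to GRCh37, and sequences from RefSeq on GRCh38.p14, by symbol.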

Additional observations from a re-analysis of the deposited data

Results flagged for a closer look

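The effects of the hairpins against shRenilla differed by a test of the difference itself for 168 genes (edgeR on the 6 libraries, Benjamini-Hochberg). Of the named genes, 11 kept this call under every alternative that gave them a value. MIR30A differed by -1.85 and LOC101927267 by -0.47, both lower with the second hairpin. Higher with the second hairpin were MFAP5 (1.52), TNNT2 (1.44), INA (1.13), TNS3 (1.13), KRT18 (1.12), ITGA3 (1.10), KRT8 (1.06), MYOF (1.06) and WNT16 (0.66). Of these 11 genes, MIR30A and WNT16 lay below shRenilla with both hairpins and the other 9 above it.

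NAGK, N-acetylglucosamine kinase, was the 1 called gene whose hairpin libraries lay wholly on opposite sides of shRenilla, and was picked out for that. It was at 20.2, 19.9 and 18.3 CPM with shRenilla, at 17.0, 15.7 and 16.3 CPM with the first hairpin and at 22.5, 25.7 and 22.6 CPM with the second hairpin. The difference between the hairpins was 0.52 (SE 0.0811, adjusted p = 0.0124, edgeR) and was not called without replicate 1 of the first hairpin (adjusted p = 0.0798) or replicate 1 of the second hairpin (adjusted p = 0.052). The call was also lost in the fit of 9 libraries (adjusted p = 0.0557) and with the replicate block (0.125). Against shRenilla, NAGK passed narrowly with each hairpin (adjusted p = 0.0497 for the first and 0.0396 for the second, edgeR on 9 libraries). In the DMSO libraries NAGK was at 18.7 to 20.8 CPM, and in the dBRD9-A libraries at 24.1 to 24.8 CPM. The reason was not tested.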

How the results depend on the processing

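The 168 calls became 311 with DESeq2, 369 with no filter on low counts, 109 with transcript rows summed per gene, 21 in the fit of 9 libraries, 19 with a replicate block and 73 with a fold above 1.5 added. They were 28 to 520 when 1 library was left out: 31, 93 and 131 without replicates 1, 2 and 3 of the first hairpin, and 28, 520 and 98 without those of the second hairpin. The cause was not tested. The other scalings, voom, a mean of at least 5 CPM, a fit that was not robust and fits of 8 or 15 libraries gave 112 to 246, within 1.5 times the count. The counts of each hairpin against shRenilla moved by less than 1.5 times under every alternative run. Of 84 named calls, none changed direction under any alternative run, 11 held under all of them and 20 held without any single library. The fit of 9 libraries lost 64 of the 84. Of the fits without 1 library, those without replicate 1 lost the most, 56 (first hairpin) and 60 (second hairpin).

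The replicate numbers did not pair the libraries: same-numbered libraries of both hairpins had correlations of their deviations of 0.30, -0.61 and -0.54 over 11123 genes. Replicate 2 of the first hairpin correlated with replicate 3 of the second at 0.59 and replicate 3 with replicate 2 at 0.69, which no label gives as pairs. With the block, 19 of the 84 named calls held, and those lost included FOS (adjusted p = 0.0697), ID1 (0.0523) and SEMA3B (0.0541). MYC, TWIST1 and ZIC1, none called, lay near 0 and changed sign. MYC went from -0.0027 to 0.0067 with total counts and 0.014 in the fit of 15 libraries, and from -0.070 to 0.064 when 1 library was left out. ZIC1 went from -0.015 to 0.0018 in the fit of 15 libraries, and from -0.046 to 0.0082 without 1 library, and TWIST1 ranged from -0.085 to 0.033. Depth limits genes under about 5 CPM, where 28 of the 117 higher and 2 of the 51 lower calls lie.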
